A study of Bos taurus with 20 samples.

Results

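Cefapirin-treated glands (CF) were compared with the challenged not treated glands (CNT) of the same cows 48 h after intramammary challenge with E. coli. The comparison used 6 of the 20 glands in the series: the CF and the CNT gland of each of the 3 cows sampled at 48 h, cow8452, cow8507 and cow8605, paired by the cow number in the sample title. All were Holstein Friesian cows in mid-lactation, and age was not given in the sources used here. Each cow had 4 glands on the array. One was not challenged (NC), and each of the other 3 received 100 cfu of E. coli through the teat canal. Of those, the CNT gland got no drug, the CF gland got 300 mg cefapirin, and the CFPD gland got 300 mg cefapirin with 20 mg prednisolone. In the 3 cows of 48 h, infusions were given at 4, 12, 24 and 36 h after challenge. Pieces of mammary tissue were taken, from the cisternal region by the labels but from mid parenchyma by the study's methods, which was not settled here. They were hybridised to the Affymetrix GeneChip Bovine Genome Array, and all values below are log2 expression levels after RMA (Robust Multiarray Average) normalization, so that a difference of 1 is a 2-fold change. The 2 cows sampled at 24 h, cow8609 and cow8620, are used only where named. By the study's methods they had received fewer infusions when sampled.

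Several features of the model limit the comparison. The CNT gland was the left front and the NC gland the right front in each of the 3 cows, so that position in the udder and group cannot be told apart. The CF gland was the left rear in cow8507 and cow8605 but the right rear in cow8452, and the total counts are therefore also given with the CF and CFPD labels of cow8452 exchanged, as are some list counts and calls. The 4 glands of a cow shared 1 circulation and were not independent of each other. Milk protein genes were among the brightest on all 12 arrays of 48 h: CSN2 (beta-casein) read 15.1 to 15.6 and CSN1S1 (alpha-S1-casein) 14.1 to 14.9, at or above the 99.5th percentile of every array, as fits lactating mammary tissue.

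Cefapirin is a cephalosporin, a beta-lactam antibiotic that stops bacteria from building their cell wall. In a challenged gland, lipopolysaccharide of E. coli is bound by LBP and sensed through CD14 and Toll-like receptor 4 on epithelial cells and macrophages. NF-kB then turns on chemokines, which draw neutrophils from the blood into the milk space, together with acute phase proteins, defensins and complement. Milk fat synthesis is known to fall in inflamed glands.

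At 48 h, 420 probe sets were lower and 97 were higher in CF than in CNT glands (limma with cow as a block, Benjamini-Hochberg adjusted p under 0.05 and at least a 2-fold change), which is 3.23% and 0.746% of the 13000 probe sets tested. The change had the same direction in 3 of 3 cows for every one of the 517. The calls were made across the same 3 cows, so this is a description only. The levels of the CF and CNT glands did not overlap for 369 of the lower and 68 of the higher probe sets. Over all probe sets tested, CF lay wholly below CNT in 14.5% and wholly above it in 4.88%. A change of at least 2 log2 units was reached by 87 lower and 13 higher probe sets, and one of at least 3 by 20 and 2. The plot of difference against adjusted p shows this asymmetry.

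**Figure D1:**
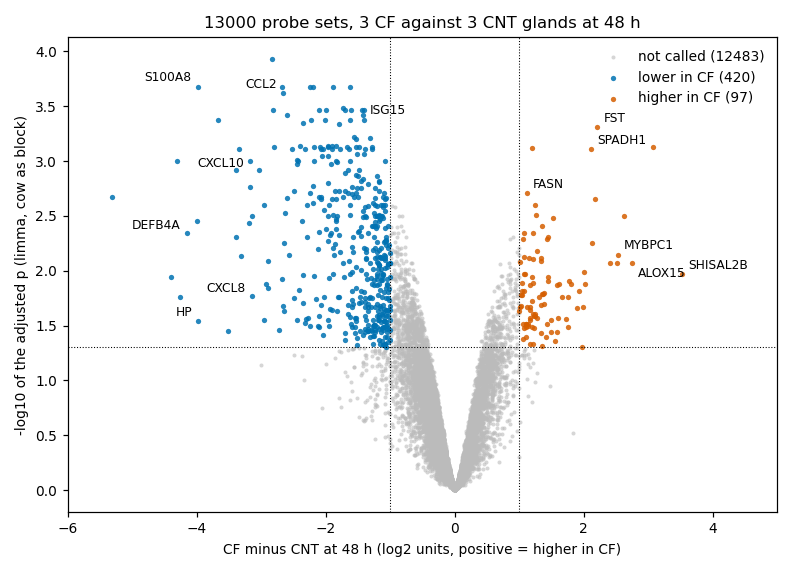
Each point is 1 of 13000 probe sets, with the CF minus CNT difference at 48 h in log2 units on the x axis (fit over 3 cows) and -log10 of the limma adjusted p on the y axis; dotted lines mark a 2-fold change and an adjusted p of 0.05. Of the called probe sets, 420 lie on the left, reaching beyond -5, and 97 on the right, with SHISAL2B at 3.52.

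The counts depended on the cow term and on single animals. Without it, 195 probe sets were lower and 18 higher, all of them among the 420 and 97. With the labels of cow8452 exchanged, 450 were lower and 118 higher, of which 385 and 90 were in the first lists. Leaving out both rear glands of cow8452 left 390 and 84. Without cow8605 the counts were 182 and 16, without cow8507 232 and 61, without the CF array of cow8507 209 and 28, and without the CNT array of cow8507 509 and 176. The median over all tested probe sets was -0.14, being -0.09 in cow8452, -0.27 in cow8507 and -0.02 in cow8605. Quantile normalization of the arrays set the median of the genes to 0 and changed the split to 283 lower and 154 higher. Among the called lower probe sets the median change was -1.53, -1.46 and -1.51 in cow8452, cow8507 and cow8605, and among the called higher ones 1.49, 1.17 and 1.30. Since calls were made across the 3 cows, these medians are a description only.

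Genes were then read 1 probe set each, that with the highest mean, which gave 6732 named genes: 252 of them (3.74%) were lower and 45 (0.668%) higher, and their median was -0.17. Gene lists below are described against these shares. A probe set was tested when it exceeded its array's median on at least 3 of the 12 arrays, so that it could pass through the CNT glands alone, and list members that did not pass are not counted. At the probe set given, CXCR1, PLEK, CXCL5, RSAD2 and SLC1A1 passed in that way. For the genes chosen for description, 9 further fits each left out 1 CF array, 1 CNT array or 1 cow, and a call that ended in one of them is named. Other genes were not followed singly through these fits. The exceptions MSR1, CCL26 and ELOVL5 and the genes given as not called were, CXCL2, CD40 and CCL3 apart, picked after their values were seen. Of 79 called genes chosen for description, 31 kept their call in all 9 fits.

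Neutrophil genes had the lowest list median. Of 26 listed markers 16 were on the array and 10 were tested. Of these, 9 were lower in CF, with a median of -2.11, while the tenth, AOAH, differed by 0.07 (adjusted p = 0.838). CXCR1, for one, was under the array median in every CF, CFPD and NC gland, and passed the filter through the CNT glands alone. The count, the median and the place of this list can thus in part follow from the filter. S100A8, which codes for a calcium-binding calgranulin held in bulk by neutrophils, read 11.92, 11.48 and 13.44 in the CNT glands of cow8452, cow8507 and cow8605 and 8.64, 7.07 and 9.16 in their CF glands. Every CNT gland was above every CF gland, and the change of -3.99 ± 0.29 (SE, 15.9-fold lower, limma adjusted p = 0.000212) held in all 9 further fits. S100A12, another calgranulin, read 11.15, 11.50 and 12.56 in CNT and 8.36, 6.50 and 8.37 in CF, a change of -4.0 ± 0.58 (limma adjusted p = 0.0035), which missed the threshold without cow8605 (limma adjusted p = 0.0568). Its fall was smallest in cow8452. S100A9, the partner of S100A8, was measured by 2 probe sets at -2.40 ± 0.24 and -5.31 ± 0.69 (limma adjusted p = 0.000729 and 0.00211). CXCR1, a receptor for CXCL8 on neutrophils, fell by 3.15 ± 0.45 (limma adjusted p = 0.00316), and missed the threshold without cow8507 (limma adjusted p = 0.0714). CXCR4, the receptor that holds neutrophils in bone marrow and guides lymphocytes, fell by 1.90 ± 0.19 (limma adjusted p = 0.000729). The count was 9 also without the cow term and with the labels exchanged, and 7 without cow8605. In a piece of tissue, fewer cells of a type and less RNA per cell cannot be told apart.

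Genes expressed by leukocytes in general were lower as well. Of the 13 pan-leukocyte genes tested, 9 were lower (median -1.53) and none was higher. CORO1A, an actin-binding protein of blood cells, was 10.25, 9.42 and 9.83 in CNT and 8.56, 7.71 and 8.09 in CF, with the groups apart and a change of -1.71 ± 0.14 (limma adjusted p = 0.000346). CD48, a surface protein of leukocytes, fell by 2.02 ± 0.18 (limma adjusted p = 0.000425), and HCLS1, a signalling adaptor of blood cells, fell by 1.61 ± 0.14 (limma adjusted p = 0.000346). PLEK, the protein kinase C substrate pleckstrin of platelets and leukocytes, was among the genes that fell most, from 9.78, 9.57 and 9.48 to 6.73, 5.30 and 5.74 (-3.68 ± 0.34, limma adjusted p = 0.000425). These 4 genes kept their calls in all 9 further fits. PLEK was under the array median in every CF, CFPD and NC gland, and passed the filter through the CNT glands alone. The mean level of the tested pan-leukocyte genes ran from 9.33 to 10.02 in the CNT glands, from 8.07 to 8.64 in CF and from 8.57 to 9.14 in NC, and the part of leukocyte number in the other differences was not tested.

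Of 15 macrophage and monocyte genes tested, 10 were lower and 1 was higher, with a median of -1.38. MPEG1, a pore-forming protein of macrophages, read 10.98, 10.35 and 9.98 in CNT and 8.87, 8.27 and 8.45 in CF (-1.91 ± 0.20, limma adjusted p = 0.000777), and FCER1G, the signalling chain of Fc receptors, fell by 1.92 ± 0.22 (limma adjusted p = 0.00107). Both groups were apart in each of the 2 genes, and both calls held in all 9 further fits. CSF1R, the receptor through which macrophages are maintained, fell by 1.40 ± 0.20 (limma adjusted p = 0.00314), and missed the threshold without cow8605 (limma adjusted p = 0.061). The exception was MSR1, a scavenger receptor of macrophages, which rose by 1.42 (limma adjusted p = 0.0403). CD14, the co-receptor for lipopolysaccharide, differed by -0.05 (adjusted p = 0.89). The count of higher genes was 0 without the cow term and in 8 of the 9 further fits. The count of lower genes was 4 without cow8605, 5 without the CF array of cow8507 and 6 without cow8452 or its CF array.

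Of 15 T cell and NK cell genes tested, 3 were lower, with a median of -0.65. CD69, an early activation antigen, read 9.18, 8.80 and 8.43 in CNT against 7.58, 6.20 and 6.30 in CF, without overlap, and its change of -2.11 ± 0.18 (limma adjusted p = 0.000346) held in all 9 further fits. NKG7, a granule protein of cytotoxic cells, differed by -1.23 ± 0.17 (limma adjusted p = 0.0025), and missed the threshold without cow8605 (limma adjusted p = 0.0527) and without the cow term (0.0704). CD3G, a chain of the T cell receptor complex, had a change of -1.07 ± 0.25 (limma adjusted p = 0.0294) that was lost with the labels exchanged (0.0538), without the cow term (0.24) and in 6 of the 9 further fits, those without cow8452 (0.137), without cow8507 (0.185) and without the CF or the CNT array of either cow (0.061 to 0.121). CD3D and CD3E, other chains of that complex, differed by -0.60 and -0.42 without a call. Neither of the 2 B cell and plasma cell genes tested, JCHAIN and MZB1, was called.

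**Figure D2:**
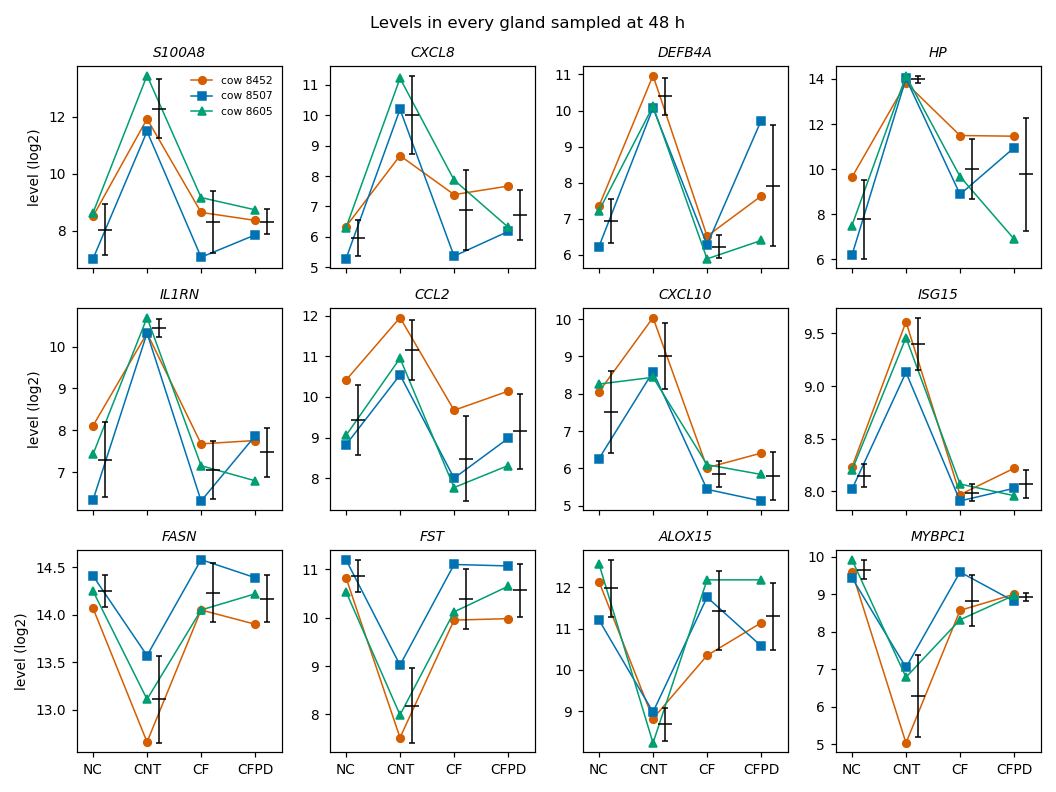
Log2 level of 12 genes in every gland sampled at 48 h, with a line per cow across the NC, CNT, CF and CFPD glands and, beside them, the group mean with its SD (n = 3 cows). In the upper 8 panels the CNT gland of each cow lies above its CF gland, and in the lower 4 panels (FASN, FST, ALOX15, MYBPC1) it lies below.

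Among 22 chemokine ligand genes tested, 8 were lower and 1, CCL26, an attractant of eosinophils, was higher at 1.56 (limma adjusted p = 0.0437), and the median was -0.60. No ligand was called higher without the cow term or in 7 of the 9 further fits. The count of lower ligands was 5 without the CF array of cow8507, without cow8605 and without the cow term. CXCL8, the main neutrophil attractant of cattle, read 8.67, 10.19 and 11.21 in CNT and 7.39, 5.37 and 7.87 in CF. The groups did not overlap, but the difference was -1.29 in cow8452 against -4.81 and -3.34 in cow8507 and cow8605, and the call (-3.15 ± 0.64, limma adjusted p = 0.0171) was lost without cow8507 (0.178), without its CF array (0.113) and without cow8605 (0.0977). CXCL5, another neutrophil attractant, fell by 3.34 ± 0.35 (limma adjusted p = 0.000777), but passed the filter through the CNT glands alone. CXCL2, of the same family, read 8.59, 9.63 and 10.59 in CNT and 8.21, 5.89 and 7.26 in CF, a difference of -2.49 ± 0.74 that did not pass (limma adjusted p = 0.0587). It was called with the labels of cow8452 exchanged (0.0474), with cow as a random block (0.0482), without cow8452 (0.014) and without the CNT array of that cow (0.00336). The difference was -0.38 in cow8452 against -3.74 and -3.34 in the other 2 cows.

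Among the CC chemokines, CCL2, the monocyte attractant, read 11.95, 10.54 and 10.95 in CNT and 9.67, 8.00 and 7.77 in CF, a change of -2.67 ± 0.21 (limma adjusted p = 0.000239) that held in all 9 further fits and was just missed without the cow term (0.051). CCL8, which also attracts monocytes, went from 10.24, 9.28 and 9.33 to 7.26, 7.29 and 7.01 (-2.43 ± 0.27, limma adjusted p = 0.00099), likewise in all 9. CCL3 was measured by 2 probe sets that did not give the same picture: the brighter differed by 0.05 (limma adjusted p = 0.858) and the other fell by 2.65 ± 0.42 (limma adjusted p = 0.00563). CXCL10, an interferon-induced attractant of T cells, went from 10.04, 8.59 and 8.44 to 6.02, 5.44 and 6.10 (-3.17 ± 0.36, limma adjusted p = 0.00099), in all 9 further fits. Among 7 chemokine receptor genes tested, CXCR1 and CXCR4 were the 2 called, and the median was -0.77. CCR1 and MAP3K8 had no probe set under these names, and IL12A did not pass the filter.

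Of 26 cytokine and cytokine receptor genes tested, 9 were lower and none was higher (median -0.77). The largest change was that of IL1RN, the natural antagonist of interleukin 1, which read 10.32, 10.32 and 10.69 in CNT and 7.68, 6.32 and 7.16 in CF (-3.39 ± 0.40, limma adjusted p = 0.00122). IL1RAP, the accessory chain of the interleukin 1 receptor, fell by 2.44 ± 0.28 (limma adjusted p = 0.00107), and LTB, lymphotoxin beta, fell by 1.54 ± 0.16 (limma adjusted p = 0.000748), a call missed without the cow term (0.0552). All 3 kept their calls in the 9 further fits. IL1R1, the receptor chain that carries the interleukin 1 signal, differed by -0.04 (adjusted p = 0.876). The count was 4 without cow8605 and also 4 without the cow term.

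Among 36 genes of the Toll-like receptor and NF-kB list, 5 (13.9%) were lower against 3.74% over all genes, with a median of -0.27 against -0.17, and the count was 0 without cow8605 and 1 without the cow term. MYD88, the adaptor shared by most of these receptors, differed by 0.03, TLR4, the receptor for lipopolysaccharide, by -0.60 and RELA, a subunit of NF-kB, by -0.05, none of them called. NFKBIA, the inhibitor of NF-kB that NF-kB itself induces, went from 11.71, 11.88 and 12.31 to 10.95, 10.88 and 10.54 (-1.18 ± 0.28, limma adjusted p = 0.0284), and was lost without the cow term (0.0763), under quantile normalization and in 7 of the 9 further fits (adjusted p of up to 0.14, without the CF array of cow8507). BIRC3, an inhibitor of apoptosis that NF-kB induces, fell by 1.40 ± 0.32 (limma adjusted p = 0.0258), and was lost in 6 of them (up to 0.143, without cow8605) and without the cow term (0.0503). CD40, a co-stimulatory receptor, differed by -0.66 ± 0.33 (limma adjusted p = 0.199), with overlapping groups. Only this probe set was tested under that symbol. The study lists CD40 as lower in CF than in CNT at 48 h, and the probe set behind that entry is not known here. In the STAT3 and SOCS list 2 of 10 genes were lower, STAT3 and CEBPB, at -1.13 ± 0.23 and -1.11 ± 0.20 (limma adjusted p = 0.0173 and 0.0109). CEBPB was also lost without the cow term (0.0936). Both are transcription factors of the acute phase response, each has a further probe set that was not called (-0.73 and -0.58), and neither was called under quantile normalization or without cow8507 (0.116 and 0.133), its CF array (0.098 and 0.0741), cow8605 (0.1 and 0.0987) or its CNT array, where the change fell under 2-fold.

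Of 13 acute phase and antimicrobial genes tested, 7 were lower (median -2.06), 3 without the cow term and 1 without cow8605. DEFB4A, a beta-defensin, read 10.97, 10.07 and 10.12 in CNT and 6.52, 6.28 and 5.89 in CF, which at -4.16 ± 0.64 (17.8-fold lower, limma adjusted p = 0.00454) was the largest fall among the genes chosen for description at the brightest probe set of each, and missed the threshold without cow8605 (0.0527). LAP, the lingual antimicrobial peptide, another beta-defensin, went from 10.84, 11.35 and 14.25 to 7.59, 7.67 and 11.61. The CF gland of cow8605 was above 2 of the CNT glands, so that the groups overlapped, yet the change was alike within each cow (-3.19 ± 0.47, limma adjusted p = 0.00365, and 0.181 without the cow term). HP, haptoglobin, read 13.82, 14.02 and 14.13 in CNT, within 0.31 of each other, and 11.49, 8.88 and 9.67 in CF. Its change of -3.98 ± 0.94 (limma adjusted p = 0.0286) was lost without the cow term (0.0961) and in 7 of the 9 further fits (up to 0.164, without the CF array of cow8507). LBP, the lipopolysaccharide binding protein, behaved likewise, at 13.73, 14.23 and 14.26 in CNT and 12.49, 10.82 and 11.92 in CF (-2.33 ± 0.56, limma adjusted p = 0.0302, 0.094 without the cow term, and up to 0.223, without cow8507, in the 7 fits where it was lost). The study, whose methods state no cow term, lists LBP at 48 h as lower than CNT in CFPD but not in CF. CP, ceruloplasmin, a copper-carrying acute phase protein, fell by 3.40 ± 0.53 (limma adjusted p = 0.00493), and missed the threshold without cow8605 (0.066). CHI3L1, a chitinase-like protein of inflamed tissue, fell by 3.51 ± 0.89 (limma adjusted p = 0.0356), and was lost without the cow term (0.108) and in 8 of the 9 further fits (up to 0.196, without the CF array of cow8507). SAA3, the mammary serum amyloid A, differed by -2.06 and was not called (adjusted p = 0.179).

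Complement genes were lower in 11 of 19 tested (median -1.14), with none higher. C1R and C1S, the 2 proteases of the C1 complex, were both lower. C1R fell by 1.95 ± 0.26 (limma adjusted p = 0.00251) and was lost without cow8507 (0.0574) or cow8605 (0.0696), whereas C1S fell by 1.08 ± 0.12 (limma adjusted p = 0.00101) and held in all 9 further fits but not under quantile normalization. ITGB2, the beta chain of the complement receptors and of the leukocyte integrins, read 9.51, 8.80 and 9.26 in CNT and 7.44, 6.99 and 7.61 in CF (-1.85 ± 0.24, limma adjusted p = 0.00223), also in all 9. C3, the central component, differed by -0.10 (adjusted p = 0.717). The count was 4 without the cow term and 3 without cow8605.

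Interferon-stimulated genes were lower in 9 of 25 tested (median -0.86). ISG15, a ubiquitin-like modifier induced by interferon, read 9.61, 9.13 and 9.46 in CNT and 7.97, 7.91 and 8.07 in CF (-1.41 ± 0.13, limma adjusted p = 0.000425), and held in all 9 further fits. RSAD2, an antiviral protein, fell by 1.42 ± 0.17 (limma adjusted p = 0.00145), and was missed without cow8605 (0.0557) and without the cow term (0.0532). In the antigen presentation list 9 of 20 genes were lower (median -0.91). All 20 were below 0, against 4783 of all 6732 genes. PSMB9, a subunit of the immunoproteasome, went from 11.23, 9.65 and 9.70 to 8.88, 8.12 and 8.14 (-1.82 ± 0.21, limma adjusted p = 0.00102, and 0.051 without the cow term), in all 9 further fits. PSMB8, its companion subunit, fell by 1.35 ± 0.18 (limma adjusted p = 0.00259), and CTSS, cathepsin S, which trims the invariant chain of class II molecules, fell by 1.18 ± 0.15 (limma adjusted p = 0.00186); both were missed without cow8605 (0.061 and 0.0527), and CTSS also without the cow term (0.0591). Without cow8605 the count of interferon-stimulated genes was 4. That of antigen presentation genes was 4 without cow8452 or its CNT array and 5 without its CF array, without cow8507 or its CF array, without cow8605 and under quantile normalization. Exchanging the labels of cow8452 left 9 interferon-stimulated genes and 6 antigen presentation genes lower, and without the cow term 3 and 1 were left.

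The phagocyte NADPH oxidase makes the oxidative burst. Of its 6 genes tested, 4 were lower (median -1.36). NCF1, the organising cytosolic subunit, read 9.30, 9.04 and 9.71 in CNT and 6.91, 6.21 and 6.50 in CF (-2.81 ± 0.29, limma adjusted p = 0.000748). CYBB and CYBA, the 2 chains of the membrane cytochrome, were lower, at -1.53 ± 0.20 and -1.51 ± 0.16 (limma adjusted p = 0.00195 and 0.000868). All 3 held in the 9 further fits and had groups without overlap. On the side of antioxidant defence, 5 of 23 oxidative stress and metal-binding genes were lower (median -0.60), 2 without the CF array of cow8507 and 3 without the cow term. HMOX1, haem oxygenase, fell by 1.90 ± 0.25 (limma adjusted p = 0.00222), and SRXN1, sulfiredoxin, fell by 1.62 ± 0.23 (limma adjusted p = 0.00312), each in all 9 further fits. GPX1, glutathione peroxidase, had a change of -1.19 ± 0.21 (limma adjusted p = 0.00958), lost without cow8507 (0.0997) or its CF array (0.0678), without cow8605 (0.059), and without the CNT array of cow8605, where it fell under 2-fold.

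Leukocyte adhesion genes were lower in 4 of 17 tested (median -0.46). ICAM1, an endothelial and epithelial ligand of leukocyte integrins, fell by 1.86 ± 0.30 (limma adjusted p = 0.00566), and VCAM1, its counterpart for lymphocytes and monocytes, fell by 1.21 ± 0.17 (limma adjusted p = 0.00259). Both were missed without cow8605 (0.06 and 0.0522), and VCAM1 also without the cow term (0.123). The count of the list was 1 without cow8605 and 2 without the cow term. In the matrix protease list 7 of 18 genes were lower (median -0.96). PLAU and PLAUR, urokinase and its receptor, were lower, at -2.11 ± 0.32 and -1.43 ± 0.20 (limma adjusted p = 0.00447 and 0.00322), and both were missed without cow8507 (0.0545 and 0.0617). The count was 3 without the CF array of that cow and without the cow term. Among 14 fibroblast and matrix genes 4 were lower (median -0.33), none without the CF array of cow8507. COL3A1, a fibrillar collagen, and FN1, fibronectin, were lower, at -1.89 ± 0.34 and -1.64 ± 0.28 (limma adjusted p = 0.0107 and 0.00814), and COL15A1, a basement membrane collagen, fell by 1.15 ± 0.21 (limma adjusted p = 0.0105). A further probe set of COL15A1, at -0.94, was under 2-fold and not called. COL3A1 stood at 12.44 in the CNT gland of cow8452 against 9.92 and 10.46 in the other 2, its difference was -3.04 in this animal and -1.31 in each of the others, and its call ended without the cow term (0.0995). Without the CF array of cow8507 none of the 3 was called (0.052, 0.0533 and 0.0558), nor were they without cow8507 (0.0657, 0.0533 and 0.0749). COL3A1 was also lost without cow8605 (0.0658) and COL15A1 without cow8452 (0.0687) and under quantile normalization.

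Apoptosis genes were lower in 4 of 15 tested (median -0.53), and in none without cow8605. All 15 were below 0, against 4783 of all 6732 genes. CASP1, which activates interleukin 1 beta, fell by 1.63 ± 0.22 (limma adjusted p = 0.0025), missed without cow8605 (0.0568). CASP4, the sensor of lipopolysaccharide in the cytosol, fell by 1.72 ± 0.32 (limma adjusted p = 0.0115), and BCL2A1, an anti-apoptotic protein of leukocytes, fell by 2.19 ± 0.40 (limma adjusted p = 0.0111). Both were lost without cow8507 (0.122 and 0.0768), its CF array (0.08 and 0.074) or cow8605 (0.101 and 0.11). Few genes of the unfolded protein response list were called: 1 of 23 was lower (median -0.46), the secreted stress protein MANF at -1.08 ± 0.30 (limma adjusted p = 0.0466), which was lost without the cow term (0.198), with cow as a random block, under median centring or quantile normalization and in 8 of the 9 further fits (up to 0.199, without the CF array of cow8507). Of 7 proliferation genes 1 was lower (median -0.37), MCM6, a part of the replicative helicase, at -1.46 ± 0.31 (limma adjusted p = 0.0192). It was lost without the cow term (0.151), without cow8507 (0.0986), without its CF array (0.12) and without cow8605 (0.0876).

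Eicosanoid genes went both ways. Of 9 tested, 2 were lower and 2 higher, with a median of -0.56. ALOX5AP, which presents arachidonic acid to 5-lipoxygenase in leukocytes, read 9.31, 8.77 and 9.25 in CNT and 7.69, 7.22 and 7.53 in CF (-1.63 ± 0.15, limma adjusted p = 0.000425), and PTGDS, prostaglandin D synthase, fell by 2.20 ± 0.29 (limma adjusted p = 0.00242, 0.0696 without the cow term), both in all 9 further fits. ALOX15, a lipoxygenase that makes 15-hydroxy fatty acids, read 8.82, 8.98 and 8.23 in CNT and 10.35, 11.76 and 12.18 in CF, with no overlap (2.75 ± 0.48, limma adjusted p = 0.00847). HPGD, which breaks prostaglandins down, went from 7.70, 10.24 and 7.40 to 10.74, 11.68 and 8.97 (2.02 ± 0.39, limma adjusted p = 0.0132). ALOX15 was lost without cow8507 (0.0549), its CF array (0.0665) or cow8605 (0.093), and HPGD without the same 3 (0.0672, 0.0654 and 0.058), without cow8452 (0.0532), with cow as a random block and without the cow term (0.232).

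Of 40 milk fat genes tested, 7 were higher and 1, ELOVL5, a fatty acid elongase, was lower at -1.16 (limma adjusted p = 0.022), with a median of 0.40. No gene of the list was called lower without the cow term, under quantile normalization, without cow8605, or without the CF array of cow8507 or cow8605 or the CNT array of cow8452. FASN, fatty acid synthase, read 12.66, 13.57 and 13.11 in CNT and 14.05, 14.58 and 14.05 in CF (1.12 ± 0.14, limma adjusted p = 0.00195). Each CF gland was above each CNT gland, and the call held except without cow8452 or its CNT array, where the rise was under 2-fold. GPAT4, an acyltransferase that starts triglyceride synthesis, rose by 1.43 ± 0.22 (limma adjusted p = 0.00516), and PPARGC1A, a coactivator of lipid metabolism, rose by 1.08 ± 0.20 (limma adjusted p = 0.0106). Neither was called without the cow term (0.11 and 0.192) or without cow8605 (0.0821 and 0.0656), and PPARGC1A was lost also without cow8452 (0.0538), without cow8507, where the rise was under 2-fold, and without the CF array of that cow (0.0515). The number of higher milk fat genes ran from 1, without cow8605, to 11 over the 9 further fits, and was 9 with the labels exchanged and 1 without the cow term.

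None of 22 milk protein and lactose genes was called, with a median of 0.11. CSN2 differed by 0.24 and LALBA, the regulator of lactose synthase, by 0.33, at levels near the top of the array's range. Of 16 cholesterol synthesis genes 1 was higher (median 0.47), TM7SF2, a sterol reductase, at 1.15 ± 0.19 (limma adjusted p = 0.00758). It was lost without the cow term (0.162), without cow8452 (0.0628), without cow8605 (0.0876) and without the CNT array of cow8605, where the rise was under 2-fold. Among 20 solute carrier and water channel genes 2 were lower (median 0.21; with the labels exchanged 3 were higher), AQP5, a water channel, and SLC1A1, a glutamate transporter, at -1.40 ± 0.35 and -1.07 ± 0.24 (limma adjusted p = 0.0342 and 0.0226). Neither was called under quantile normalization, AQP5 was lost without the cow term (0.0552), and they were lost in 7 and 6 of the 9 further fits, at up to 0.215 and 0.201, both without cow8507. No call was made among 12 luminal epithelial genes (median -0.18), 7 endothelial genes (median -0.45) or 3 adipocyte genes (median 0.23). The mean level of the luminal genes ran from 11.33 to 11.53 in CNT and from 11.19 to 11.85 in CF.

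The largest rise of a probe set with 1 gene symbol was that of SHISAL2B, a small membrane protein, which read 4.68, 7.12 and 4.52 in CNT and 10.01, 9.95 and 6.93 in CF, a mean rise of 3.52 ± 0.64 (11.5-fold, limma adjusted p = 0.0107), with overlap, since the CF gland of cow8605 lay under the CNT gland of cow8507. MYBPC1, a myosin-binding protein, was the only 1 of 14 myoepithelial and smooth muscle genes called (list median 0.27), and went from 5.04, 7.05 and 6.79 to 8.57, 9.59 and 8.32 (2.53 ± 0.42, limma adjusted p = 0.00719). ACTA2, the smooth muscle actin that marks myoepithelium, differed by 0.41 without a call. TMOD4, a tropomodulin that caps actin filaments, rose by 2.40 ± 0.42 (limma adjusted p = 0.00851). FST, follistatin, which binds activin, read 7.52, 9.02 and 7.99 in CNT and 9.95, 11.10 and 10.12 in CF (2.21 ± 0.21, limma adjusted p = 0.000487), and SPADH1, a member of the spermadhesin family, rose by 2.12 ± 0.22 (limma adjusted p = 0.000777). FST and SPADH1 were the 2 of the 12 largest rises that held in all 9 further fits, without the cow term and with the labels exchanged.

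Of the other large rises, which the plot by cow shows, PHYHIPL rose by 2.13 ± 0.34, BDH1, an enzyme of ketone body metabolism, by 1.99 ± 0.43, TECTB by 1.97 ± 0.55, ASB11 by 1.90 ± 0.42 and SLC38A3, a glutamine transporter, at its brighter probe set by 1.17 ± 0.25 (limma adjusted p = 0.00555, 0.0214, 0.0495, 0.022 and 0.0214). ASB11 rose by 3.49 in cow8452 and by 0.63 in cow8507. TECTB was also lost with cow as a random block. None of these 5 was called without the cow term, where the adjusted p ran from 0.119 to 0.186, nor was SHISAL2B (0.0563). Without cow8605, the 5 and TMOD4 and MYBPC1 were not called (adjusted p from 0.0527 to 0.222). Without cow8507 or its CF array, MYBPC1 (0.0507 and 0.0594) and SHISAL2B (0.0844 and 0.0688) were lost, as TMOD4 was without that array (0.0674). In all, TECTB was lost in 7 of the 9 further fits, SLC38A3 and BDH1 in 5 each and ASB11 in 3.

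**Figure D3:**
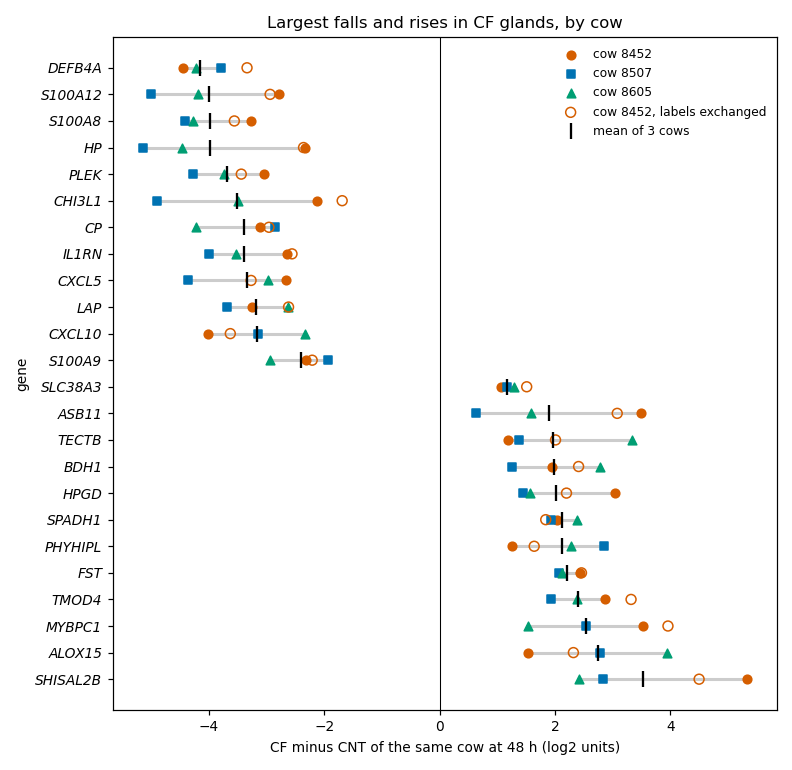
CF minus CNT difference at 48 h in log2 units for the genes of the 12 largest falls and the 12 largest rises, chosen by their most changed probe set and drawn at their brightest (for S100A9 and SLC38A3 not the same), with 1 filled symbol per cow, a black bar for the mean of the 3 cows and an open circle for cow8452 with its CF and CFPD labels exchanged. All filled symbols of a gene lie on 1 side of 0, which the choice of genes required of the chosen probe set. HP spans -5.14 to -2.33 and ASB11 0.63 to 3.49.

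**Figure D4:**
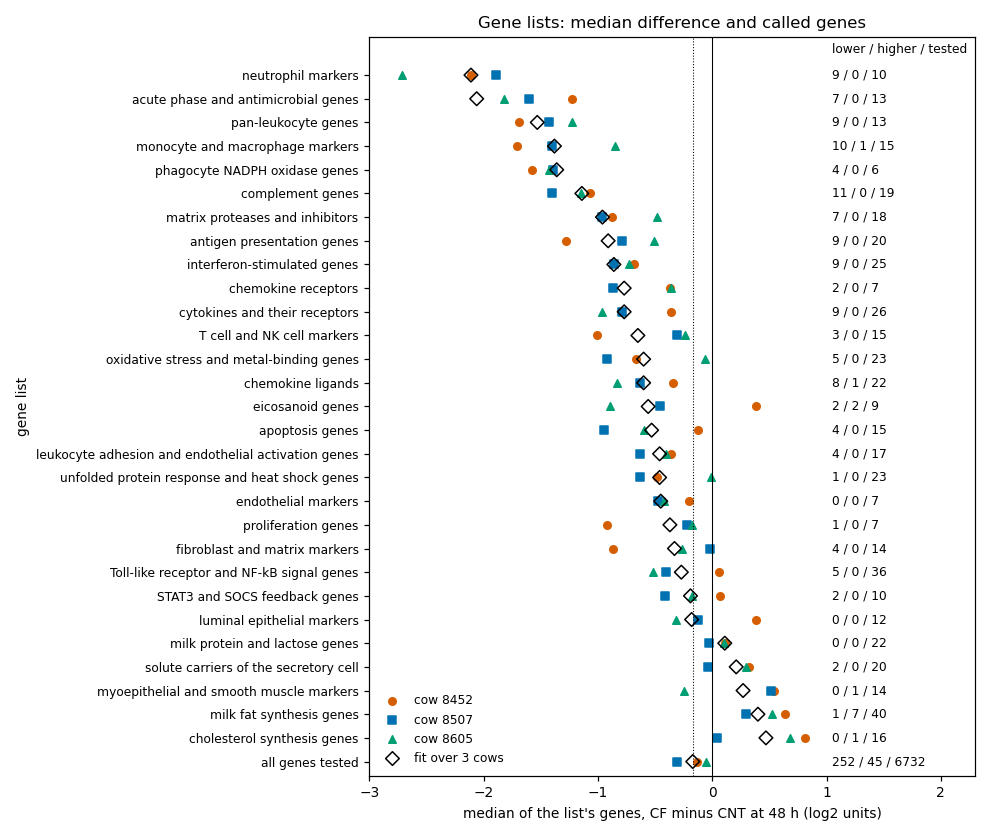
Median CF minus CNT difference at 48 h in log2 units over the tested genes of each list with at least 5 of them, with coloured symbols for each cow and an open diamond for the fit over the 3 cows; the dotted line is the median of all 6732 genes (-0.17), and the numbers at the right give the genes called lower, called higher and tested. Neutrophil markers lie lowest at -2.11, and milk fat and cholesterol synthesis genes lie highest at 0.40 and 0.47.

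The plot of list medians shows which lists kept their direction in every cow. The medians of the neutrophil, acute phase, pan-leukocyte, macrophage, oxidase and complement lists were at or below -0.85 in each of the 3 animals. The eicosanoid list was 0.38 in cow8452 and -0.46 and -0.89 in the other 2, the Toll-like receptor list 0.06 against -0.40 and -0.52, and the luminal list 0.38 against -0.12 and -0.32. Under quantile normalization the medians of the first 6 lists were between -2.03 and -0.94, that of the Toll-like receptor list was -0.10, and that of the luminal list turned to 0.01. The milk fat list was 0.64, 0.30 and 0.52 in cow8452, cow8507 and cow8605.

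Against the unchallenged glands, no probe set was called: limma gave 0 of 13000 between CF and NC, with 249 at an unadjusted p under 0.05, and 0 with 82 without the cow term and 0 with 162 with the labels exchanged. The precision leaves room for differences, since the 95% interval of CF minus NC reached a median of 0.57 log2 units to either side for the 517 probe sets. The CF and NC differences below use the same CF arrays as those above, and their 95% intervals are not adjusted for the number of genes. S100A8 was 0.25 above NC (-0.39 to 0.89), IL1RN -0.24 (-1.13 to 0.64), ISG15 -0.16 (-0.45 to 0.13) and FASN -0.01 (-0.33 to 0.30). The intervals of these 4 included 0. Those of haptoglobin and LBP did not: HP was 2.24 (0.15 to 4.33) and LBP 1.91 (0.67 to 3.15) above NC, and CXCL8 0.90 (-0.53 to 2.34). In the other direction, CXCL10 was -1.67 (-2.46 to -0.87), CCL2 -0.95 (-1.41 to -0.49), CCL8 -0.85 (-1.46 to -0.25), CD48 -0.83 (-1.24 to -0.43) and CORO1A -0.69 (-1.0 to -0.37), with unadjusted intervals wholly below 0. FST was -0.47 (-0.93 to -0.01) and MYBPC1 -0.83 (-1.77 to 0.12). For comparison, challenge alone (CNT minus NC) had moved S100A8 by 4.24, HP by 6.22, CXCL10 by 1.5, FASN by -1.13 and MYBPC1 by -3.36, in a comparison that shares its CNT arrays with the one described here.

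Cefapirin is 1 of 2 treatments that differ by the added prednisolone, a glucocorticoid, at the same cefapirin dose and times. Between CF and CFPD, limma called 0 probe sets, with 114 at an unadjusted p under 0.05, 0 with 21 without the cow term and 0 with 108 with the labels of cow8452 exchanged. The absence of calls is no evidence of equal action: the 95% interval of the difference reached a median of 0.57 log2 units to either side for the 517 probe sets. S100A8 differed between CF and CFPD by -0.02 (-0.66 to 0.62), CXCL8 by 0.15 (-1.28 to 1.59), LBP by 0.26 (-0.98 to 1.5) and CXCL2 by 0.68 (-0.97 to 2.32). Each of these intervals included 0. DEFB4A was lower in CF, by -1.69 (-3.10 to -0.27), and CCL2 by -0.67 (-1.13 to -0.21), neither past the adjusted threshold, and with the labels exchanged these differences were -0.95 and -0.35. For DEFB4A the CFPD gland of cow8507 was high, at 9.72 against 7.63 and 6.40 in cow8452 and cow8605.

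In the 2 cows of the 24 h group, fitted with all 20 arrays, CF was lower than CNT in 433 and higher in 179 probe sets. The same fit gave 484 and 111 at 48 h. S100A8 differed by -4.53 ± 0.38 at 24 h, CXCR1 by -5.75 ± 0.66 and HP by -6.15 ± 1.07, and none of these differed between 24 h and 48 h past the threshold (limma adjusted p = 0.746, 0.279 and 0.617). CCL8 differed by 0.36 ± 0.36 at 24 h and -2.43 at 48 h, a difference between times of -2.79 ± 0.47 that just missed it (limma adjusted p = 0.0527). C1S was close as well, with 0.01 ± 0.15 at 24 h, a time difference of -1.09 ± 0.19 and an adjusted p of 0.0568 in limma. The 2 times were different cows, and the cows of 24 h had received fewer infusions. Time, animal and number of infusions thus cannot be told apart.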

How the data were processed

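Tissue RNA of 20 glands of 5 cows was hybridised to 1-colour Affymetrix arrays. The authors processed the arrays with RMA in the affy package, and the deposited values are log2 expression levels; package versions and which arrays were normalised together are not given in the sources used here. Array medians lay between 7.13 and 7.31, and precision is limited by how many arrays there were. Groups, cows and times were taken from the sample labels.

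Of 24128 probe sets, 112 controls were left out, as were those above their array's median on fewer than 3 of the 12 arrays of 48 h, which left 13000. Limma 3.58.1 in R 4.3.3 was fitted to these 12 arrays with group and cow as terms. A probe set was called at an adjusted p (Benjamini-Hochberg over 13000) under 0.05 and at least a 2-fold change. A script of the same steps was tested on simulated data. The study's methods state no cow term, so the fit without it was an alternative. Each pair came from the same animal, and deviations from the group means of the CF and CNT glands correlated at 0.324, 0.416 and 0.312 in cow8452, cow8507 and cow8605. With 3 pairs an exact sign permutation of a single gene cannot go below a two-sided p of 0.25, so p-values come from the fit across probe sets.

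Of the probe sets, 13318 had 1 gene symbol in the platform annotation, 86 several and 10724 none, and 13283 were matched to RefSeq by gene ID. Genes with several probe sets were represented by that with the highest mean at 48 h. The genes described are those of the 12 largest falls and 12 largest rises among all called probe sets with 1 symbol and the same direction in all cows, each then given at its brightest probe set, up to 3 called genes per list by adjusted p, and the chemokine and Toll-like receptor genes that the study's text names for 48 h. The members and gene lists were chosen with earlier results of these data known. The time comparison was fitted to all 20 arrays. Matplotlib 3.10.9 drew the plots.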

Additional observations from a re-analysis of the deposited data

Results flagged for a closer look

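The change from CNT to CF differed between 48 h (3 cows) and 24 h (2 cows) for 3 probe sets, by limma's test of the difference itself over 20 arrays. SIRT3, a mitochondrial deacylase, differed by -1.5 ± 0.17 (SE, limma adjusted p = 0.00855): at 48 h its levels were 8.66, 9.08 and 9.0 in CNT and 8.55, 8.59 and 8.56 in CF, and at 24 h 8.27 and 8.54 in CNT against 9.42 and 9.71 in CF (cow8620 and cow8609). SLC3A2, the heavy chain of several amino acid transporters, differed by -1.75 ± 0.24 (limma adjusted p = 0.0416), with 10.19, 10.40 and 10.75 in CNT and 10.05, 9.74 and 10.35 in CF at 48 h, and 10.29 and 10.41 against 11.84 and 11.55 at 24 h. The third, a probe set with no gene symbol, differed by -1.13 ± 0.16 (limma adjusted p = 0.0416). All 3 were lower in CF in 3 of 3 cows at 48 h and higher in 2 of 2 cows at 24 h. They were called on the time difference, so these directions are a description only. The other glands of cow8620 and cow8609 stood near CF for SIRT3, at 9.38 and 9.58 in NC and 9.32 and 9.62 in CFPD. At 48 h, NC read 8.62, 8.70 and 8.81 in cow8452, cow8507 and cow8605, so the unchallenged glands differed between the times as well. None was called at 48 h itself. The times were different animals with different numbers of infusions, so that time, cow and number of infusions cannot be told apart.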

How the results depend on the processing

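The counts of lower and higher probe sets in CF, 420 and 97, kept the larger share of falls in every setting run. Without the replicate block they were 195 and 18, and with the labels of cow8452 exchanged and no block 193 and 33. Quantile normalization gave 283 and 154, no fold threshold 1001 and 338, an adjusted p under 0.01 237 and 28, and 1 probe set per symbol 254 and 45, where fewer features were tested. Leaving out 1 array or 1 cow gave 182 (without cow8605) to 509 (without the CNT array of cow8507) lower and 16 to 176 higher, for the same 2 settings. The other settings gave 320 to 570 lower and 65 to 134 higher. Of the 82 genes described, none reversed; 30 of the calls ended without the block, 1 with the exchange and 39 without cow8605, and the cause was not tested. The counts of 0 between CF and CFPD and between CF and NC stood in every setting run. The 3 probe sets that differed between times became 0 without the block, 8 with the labels of cow8452 exchanged, 8 with those of cow8609 exchanged, and 0 (without cow8605 or cow8620) to 8 (without cow8609) with 1 cow left out. Changes of under 2-fold were not called, and probe sets without a single symbol were counted, not named.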

Other observations

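Of the 252 lower and 45 higher genes, 139 and 32 were in none of the lists. The following genes were picked from these after their values were seen. LYZ2, a lysozyme, fell by 2.53 ± 0.27 (SE, limma adjusted p = 0.000777), at -2.63, -2.51 and -2.45 log2 units in cow8452, cow8507 and cow8605. CTSH, the lysosomal protease cathepsin H, fell by 2.20 ± 0.27 (limma adjusted p = 0.00168), about evenly in the 3 cows. LIPA, the lysosomal acid lipase, and APOE, apolipoprotein E, were lower, at -2.11 ± 0.48 and -2.10 ± 0.52 (limma adjusted p = 0.0256 and 0.0329), APOE at -3.6 in cow8452 and -0.97 in cow8605, and neither was called without the cow term (0.056 and 0.0793). NFE2, a transcription factor of blood cells, fell by 3.03 ± 0.35 (limma adjusted p = 0.00122), and GBP1, an interferon-induced GTPase, fell by 2.24 ± 0.29 (limma adjusted p = 0.00195).

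Among the higher genes, MPC1, a subunit of the mitochondrial pyruvate carrier, rose by 1.35 ± 0.20 (limma adjusted p = 0.0039; 0.0659 without the cow term), by 1.31, 1.15 and 1.59 in cow8452, cow8507 and cow8605. PTHLH, the parathyroid hormone-like hormone that the lactating gland secretes, rose by 1.72 ± 0.40 (limma adjusted p = 0.0277; 0.127 without the cow term), with overlapping groups.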
